A study of Homo sapiens with 18 samples.

Results

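The 7 metallothionein genes, of 11963 genes that a probe set names alone, were followed on 11 of the 22283 probe sets of the HGU133A array, taken as every probe set that the platform annotation assigns to MT1E, MT1F, MT1G, MT1H, MT1M, MT1X or MT2A and to no other gene. MT1E, MT1F, MT1G and MT1X each have a pair of probe sets, and MT1H, MT1M and MT2A have 1. The RNA came from MSTO-211H, an established human mesothelioma cell line. The cells were left untreated or received piroxicam at 760 µM (P), cisplatin at 4.5 µg/mL (C) or both drugs together (P/C), and were collected after 8 h or 24 h. Piroxicam is an anti-inflammatory inhibitor of the cyclooxygenases, and cisplatin is a platinum drug that binds DNA. There were 18 arrays in 8 groups: 2 for each of the 4 conditions at 8 h, and at 24 h 2 for untreated cells, 3 for P, 3 for C and 2 for P/C. All groups are cultures of 1 cell line. The replicates are biological ones according to the study's methods, but these do not say what samples with the same replicate number have in common. P, C and P/C were each compared with the same untreated arrays, so their values below are given side by side and are not independent of each other.

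Metallothioneins are small proteins, rich in cysteine, that hold zinc, copper and cadmium in clusters of metal and sulphur and can also bind platinum compounds. Their genes are switched on by the zinc-sensing transcription factor MTF1, which binds short metal response elements near the start of each gene, and they also respond to glucocorticoids, oxidants and other stresses. MT2A and the MT1 genes are expressed in many tissues, whereas MT3 and MT4 are known for narrower expression, MT3 in the brain and MT4 in squamous epithelium. The RefSeq gene table places the 7 genes in 1 cluster on chromosome 16, in the order MT2A, MT1E, MT1M, MT1F, MT1G, MT1H and MT1X, with other MT1 genes and pseudogenes between them.

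The sequences just upstream of 3 of the genes are shown because they carry the letters that MTF1 is known to read. They are the 250 bases before the start of each gene, on the plus strand of GRCh38.p14, from RefSeq. Capitals mark every match to TGCACNC or TGCGCNC on either strand, the core of the metal response element. MT2A lies at chr16:56608334-56608583, MT1H at chr16:56669564-56669813 and MT1X at chr16:56682220-56682469.
MT2A: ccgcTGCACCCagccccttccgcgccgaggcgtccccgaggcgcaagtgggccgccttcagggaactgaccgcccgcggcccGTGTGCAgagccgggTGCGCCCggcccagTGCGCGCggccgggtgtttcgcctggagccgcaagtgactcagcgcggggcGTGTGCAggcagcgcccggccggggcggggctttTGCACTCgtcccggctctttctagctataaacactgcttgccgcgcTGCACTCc
MT1H: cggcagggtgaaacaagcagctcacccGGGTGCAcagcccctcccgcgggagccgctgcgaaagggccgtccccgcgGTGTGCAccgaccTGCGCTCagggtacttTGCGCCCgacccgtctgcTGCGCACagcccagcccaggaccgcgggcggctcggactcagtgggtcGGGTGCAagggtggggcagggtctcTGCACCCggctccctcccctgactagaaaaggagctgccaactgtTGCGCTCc
MT1X: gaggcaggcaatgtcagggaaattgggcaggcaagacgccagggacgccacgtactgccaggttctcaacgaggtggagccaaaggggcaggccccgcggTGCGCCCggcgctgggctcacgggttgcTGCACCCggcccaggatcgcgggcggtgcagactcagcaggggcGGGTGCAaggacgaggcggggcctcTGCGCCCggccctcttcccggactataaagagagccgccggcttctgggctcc
The window of MT1H held 8 matches, that of MT2A 7 and that of MT1X 4. Over 35116 promoter windows of the same length the median was 0 matches. At least 1 match was found in 24.8% of them, at least 4 in 0.37%, at least 7 in 0.0313% and at least 8 in 0.0171%. In MT1H and MT1X a match on the minus strand stood at positions -78 to -72, counted back from the start of the gene, and one on the plus strand at -53 to -47. MT2A held a similar pair, at -88 to -82 on the minus strand and at -54 to -48 on the plus strand. A match describes the letters only and is no measurement of binding. Windows of MT1E, MT1F, MT1G and MT1M were not analysed here.

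**Figure D1:**
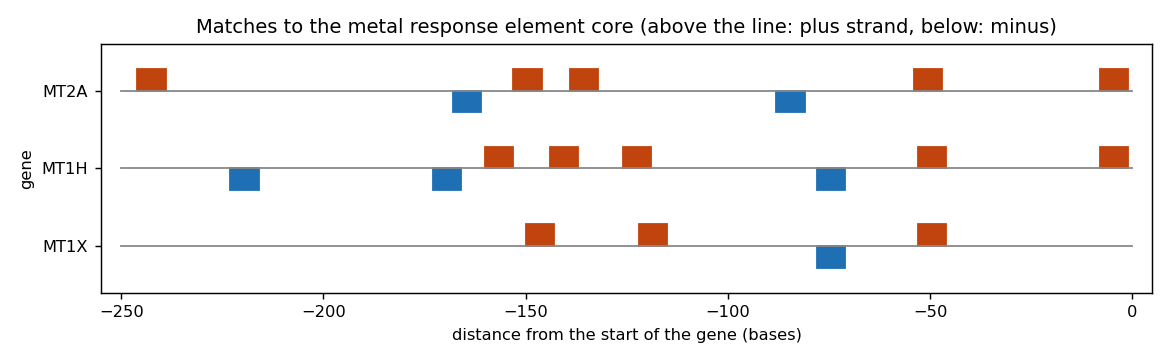
Position of each match to the metal response element core in the 250 bases before the start of MT2A, MT1H and MT1X. The x axis is the distance from the start of the gene in bases, boxes above the line are matches on the plus strand and boxes below it on the minus strand. MT2A has 7 boxes, MT1H 8 and MT1X 4, and all 3 genes have a minus-strand box followed by a plus-strand box close to the start.

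The deposited values are log2 signals, so a difference of 1 is a doubling. Of the 11 probe sets, 4 passed the study's filter, which kept probe sets that varied between arrays and reached a signal of 100, or 6.64 on the log2 scale, in at least 25% of the arrays. These were MT1H 206461_x_at, MT2A 212185_x_at and the pair for MT1X, 204326_x_at and 208581_x_at. MT2A lay between 8.51 and 10.41 over the 18 arrays, with a median of 9.92. MT1X 208581_x_at lay between 6.94 and 9.78 with a median of 9.12, MT1X 204326_x_at between 4.52 and 9.04 with a median of 7.64, and MT1H between 6.38 and 8.64 with a median of 8.18. These 4 probe sets were above the signal limit on 18, 18, 14 and 17 arrays in that order.

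The other 7 probe sets did not pass, and their tests come from a fit of all 22215 probe sets that are not Affymetrix controls. MT1G 204745_x_at came closest to passing, with 5.4 to 6.65, and reached the limit on 1 array. MT1F 217165_x_at lay between 3.29 and 5.51, MT1F 213629_x_at between 2.43 and 3.15, and the MT1E probe sets 212859_x_at and 216336_x_at between 3.22 and 4.24 and between 3.5 and 4.5. MT1G 210472_at (1.92 to 2.58) and MT1M 217546_at (1.77 to 2.12) stayed below the median of all probe sets of an array, which was 2.72 to 2.82. Between 14.9% and 16.7% of the probe sets of an array reached the signal limit. Levels of different probe sets were not compared, since each has its own probes.

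The names of these probe sets are less certain than those of most genes. In 9 of the 11 the suffix is _x_at, which Affymetrix gives to probe sets with probes that also match other sequences, and the metallothionein genes are near copies of each other. MT1X 204326_x_at carries an accession that the RefSeq table assigns to MT1L, a transcribed pseudogene of the same cluster. Only MT1G 210472_at and MT1M 217546_at lack the suffix, and both were at background. Signals are therefore given by probe set, and which family member gave a signal was not tested. In RNA of whole cultures, fewer cells with a transcript and less of it per cell cannot be told apart.

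Of the 10 mesothelial and mesothelioma markers checked, KRT18 and VIM were high on all 18 arrays (11.07 to 12.01 and 11.74 to 12.09). MSLN (1.99 to 2.57), WT1 (4.18 to 6.28), CALB2 (3.02 to 3.97), UPK3B, PDPN, KRT5, KRT19 and THBD reached the signal limit on 0 arrays. None of the leukocyte, endothelial and erythroid markers found on the array reached it. At 24 h a few arrays stood apart from the other arrays of their label. On the 24 h array that the labels call P/C replicate 1, the chemokine gene CXCL3 was at 6.47, beside 9.58 on replicate 3. CXCL3 read 6.54 and 6.81 on the untreated arrays, 7.32, 6.69 and 6.36 on the C arrays and 9.66 to 10.01 on the P arrays. HMOX1, which encodes the haem-degrading enzyme haem oxygenase 1, was at 2.47 on P/C replicate 1 and at 5.12 on replicate 3. HMOX1 read 2.87 and 2.48 on the untreated arrays and 2.9, 2.57 and 2.43 on the C arrays. On the array labelled C 24 h replicate 1, SLC30A1, which encodes the zinc exporter ZnT1, was at 4.54. SLC30A1 read 7.62 and 7.7 on the other C arrays, 7.24 on P/C replicate 1, and 5.53 and 5.63 on the untreated arrays. Several results below changed without these arrays, and the values without them stand beside those results.

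After 24 h of piroxicam alone, the signal was higher on both probe sets annotated to MT1X. On MT1X 204326_x_at the untreated arrays read 6.3 and 6.86 and the P arrays 9.04, 8.06 and 8.72. On MT1X 208581_x_at the untreated arrays read 7.75 and 8.6 and the P arrays 9.69, 9.42 and 9.78. On both, every P array lay above both untreated arrays. The log2 fold change was 2.02 ± 0.68 (SE), or 4.06-fold, on 204326_x_at, with an adjusted p of 0.0379 in limma and a 95% interval of 0.57 to 3.47. On 208581_x_at it was 1.45 ± 0.49, or 2.74-fold, with an adjusted p of 0.0385 and an interval of 0.41 to 2.5. A probe set was called where its adjusted p was 0.05 or lower and its change was 1 or more on the log2 scale in either direction. By this rule 2 of the 11 probe sets were called higher and 0 lower. Over the 3057 tested probe sets 3.14% were called higher and 11.4% lower.

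MT2A and MT1H lay higher in P by a factor close to the call limit but did not pass the test. MT2A read 9.02 and 9.69 on the untreated arrays and 10.37, 10.29 and 10.41 on the P arrays, a log2 difference of 1 ± 0.38 (SE) with an adjusted p of 0.0599 in limma and an interval of 0.19 to 1.81. MT1H read 6.87 and 7.93 on the untreated arrays and 8.6, 8.64 and 8.39 on the P arrays, a log2 difference of 1.15 ± 0.44 with an adjusted p of 0.0611. In both genes the groups did not overlap, and the P arrays were closer together than the untreated pair.

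The probe sets that did not pass the filter gave smaller differences, and none was called. MT1F 217165_x_at read 4.1 and 4.67 on the untreated arrays and 5.02, 5.31 and 5.51 on the P arrays, a log2 difference of 0.89 ± 0.36 (SE) with an adjusted p of 0.194 in limma. MT1G 204745_x_at read 5.5 and 5.97, against 6.47, 6.4 and 6.65 with P, a difference of 0.77 ± 0.23 with an adjusted p of 0.0619. The MT1E probe sets differed by 0.52 and 0.57 and MT1F 213629_x_at by 0.28. MT1G 210472_at (0.19) and MT1M 217546_at (0.01), the pair without the _x_at suffix, had the smallest differences.

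The difference was positive for 11 of the 11 probe sets, with a median of 0.77. Among all probe sets 55.4% were positive and the median was 0.03, and among the tested probe sets the median was -0.22. In 8 of the 11 every P array lay above both untreated arrays, which held for 16.9% of all probe sets, and in 0 every P array lay below them (17.3% of all). At an unadjusted p of 0.05, 8 of the 11 passed, beside 18.3% of all probe sets and 41.2% of the tested ones. As probes are shared within the family, these probe sets are not separate measurements of the same number of genes.

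How many were called depended on the fit and on single arrays. With the replicate number as a block 0 were called, with adjusted p values in limma of 0.0687 and 0.0501 for the MT1X probe sets, and in a fit of all probe sets without the filter 0 were called, with 0.136 and 0.128. Between the untreated and P arrays of the same number the deviations from the group means had r of 0.39 and 0.29 over the tested probe sets, but between other groups at 24 h some of these values were negative. Without P/C 24 h replicate 1, 4 were called, with adjusted p values in limma of 0.00184 and 0.00718 for the MT1X probe sets, 0.0192 for MT2A and 0.0161 for MT1H. That array enters this comparison only through the shared estimate of the spread and through the filter, which then kept 2934 probe sets. Without both that array and the array labelled C 24 h replicate 1 there were again 4. Leaving out untreated replicate 1, the lowest array of this comparison on all 4 probe sets, left 0 calls, with log2 differences of 1.74 and 1.03 for MT1X, 0.66 for MT2A and 0.62 for MT1H. Where an untreated array is left out, the other one is assumed to vary like the arrays of the other groups. Leaving out untreated replicate 2, P replicate 1 or P replicate 3 also left 0, and leaving out P replicate 2 left 1.

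**Figure D2:**
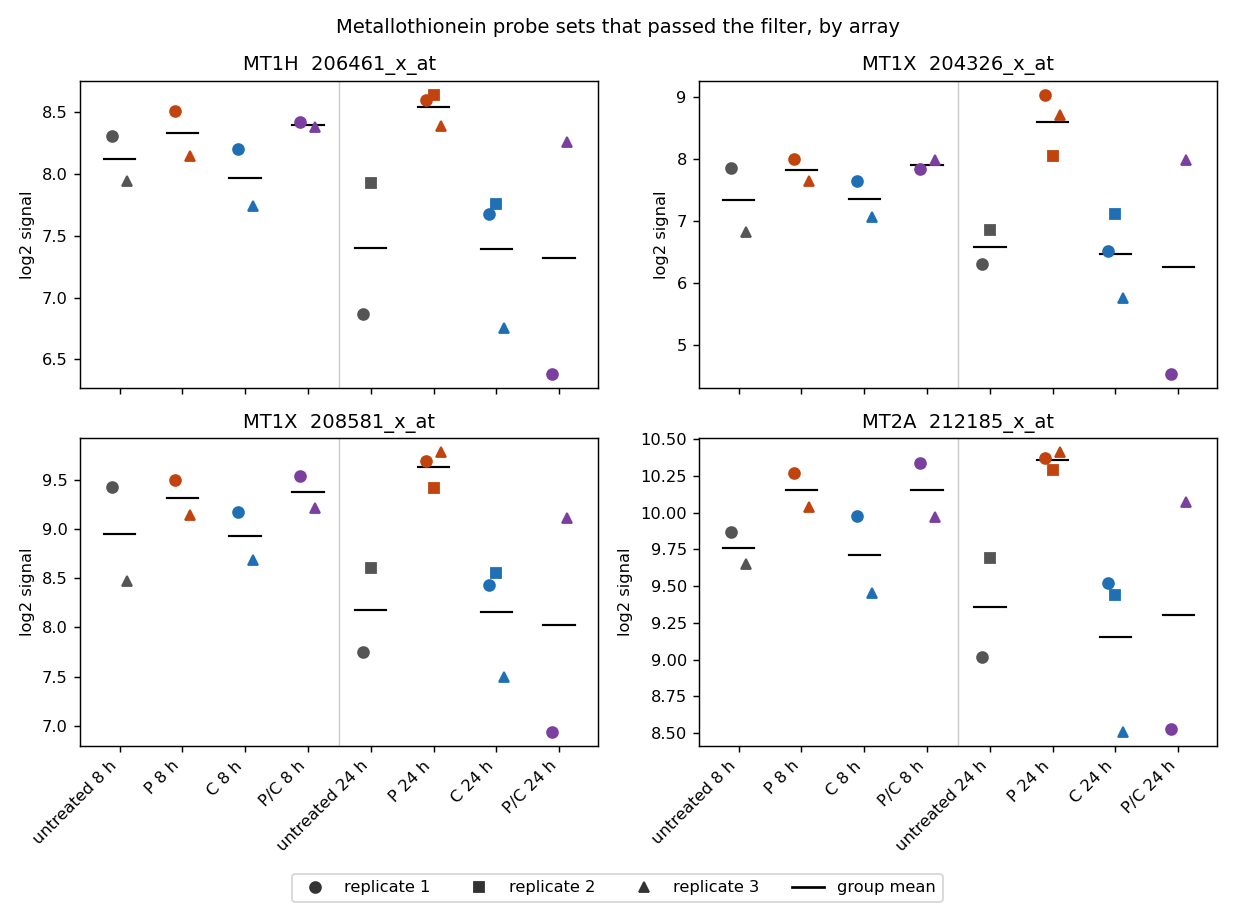
Log2 signal (y axis, a range of its own in each panel) of the 4 metallothionein probe sets that passed the filter, by group (x axis). Each point is 1 array, its shape gives the replicate number and the black line is the group mean. The P 24 h arrays lie above both untreated 24 h arrays in every panel, and the P/C 24 h arrays lie far apart, at 4.52 and 7.99 for MT1X 204326_x_at.

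With cisplatin alone no metallothionein probe set was called at either time. At 24 h the C arrays read 6.52, 7.11 and 5.75 on MT1X 204326_x_at, beside 6.3 and 6.86 on the untreated arrays. MT2A read 9.52, 9.44 and 8.51 with C, beside 9.02 and 9.69. MT1X 208581_x_at read 8.43, 8.55 and 7.49 with C, beside 7.75 and 8.6. C replicate 3 was the lowest of the C arrays on all 4 probe sets that passed the filter, 0.77 to 1.36 below the other C arrays on the log2 scale. The groups overlapped on 11 of the 11 probe sets, whereas 11.2% of all probe sets had all C arrays above and 11.2% all C arrays below the untreated ones. The differences ran from -0.2 to 0.2 with a median of -0.02, beside 0.01 for all probe sets. The lowest adjusted p in limma was 0.761, and 0% of the tested probe sets were called. An unadjusted p of 0.05 was passed by 0 of the 11, beside 8.24% of all probe sets and 13.8% of the tested ones.

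These intervals leave room for changes of some size. For C at 24 h the 95% interval ran from -1.01 to 0.61 for MT2A, from -1.58 to 1.33 for MT1X 204326_x_at, from -1.07 to 1.03 for MT1X 208581_x_at and from -0.93 to 0.94 for MT1H. Without the array labelled C 24 h replicate 1 the differences were -0.38 for MT2A, -0.16 for each MT1X probe set and -0.14 for MT1H. At 8 h the C differences ran from -0.23 to 0.05 and the groups overlapped on 11 of 11 probe sets, beside groups without overlap in 10.8% (higher) and 20.1% (lower) of all probe sets. There the lowest adjusted p was 1, and 0% of the tested probe sets were called. Of the 11, 0 passed an unadjusted p of 0.05, beside 1.96% of all probe sets and 1.14% of the tested ones.

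With both drugs at 24 h the outcome differed between the arrays. MT1X 204326_x_at read 4.52 on P/C replicate 1 and 7.99 on replicate 3, MT1X 208581_x_at read 6.94 and 9.11, MT2A 8.53 and 10.07, and MT1H 6.38 and 8.26. On MT1X and MT1H replicate 1 was the lowest of the 18 arrays and replicate 3 lay above both untreated arrays, while MT2A was lower on 1 other array only, C replicate 3. Replicate 3 exceeded replicate 1 by 3.47 and 2.17 for the MT1X probe sets, by 1.87 for MT1H and by 1.54 for MT2A. A difference of at least 1.54 was found for 52 of the 3057 tested probe sets, or 1.7%. It was positive for 10 of the 11 metallothionein probe sets and for 47% of all probe sets.

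The group means of P/C therefore say little about either array. Against untreated cells the log2 difference was -0.32 (95% interval -1.91 to 1.27) for MT1X 204326_x_at, -0.15 for MT1X 208581_x_at, -0.06 for MT2A and -0.08 for MT1H, with adjusted p values in limma from 0.799 to 0.942. None of the 11 was called, while 2.65% of the tested probe sets were called higher and 4.22% lower. An unadjusted p of 0.05 was passed by 0 of the 11, beside 14.7% of all probe sets and 29.5% of the tested ones. Groups without overlap were found for 0 in the higher direction and 1 in the lower, MT1M 217546_at, beside 20.9% and 20.5% of all probe sets. Leaving out either P/C array leaves 1, which is assumed to vary like the other groups. Without the P/C array labelled replicate 1 the differences were 1.41 and 0.93 for MT1X, 0.71 for MT2A and 0.86 for MT1H, and none was called. Without replicate 3 they were -2.06 and -1.24 for MT1X, -0.82 for MT2A and -1.01 for MT1H, and again none was called. The sign thus turned with the array left out.

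**Figure D3:**
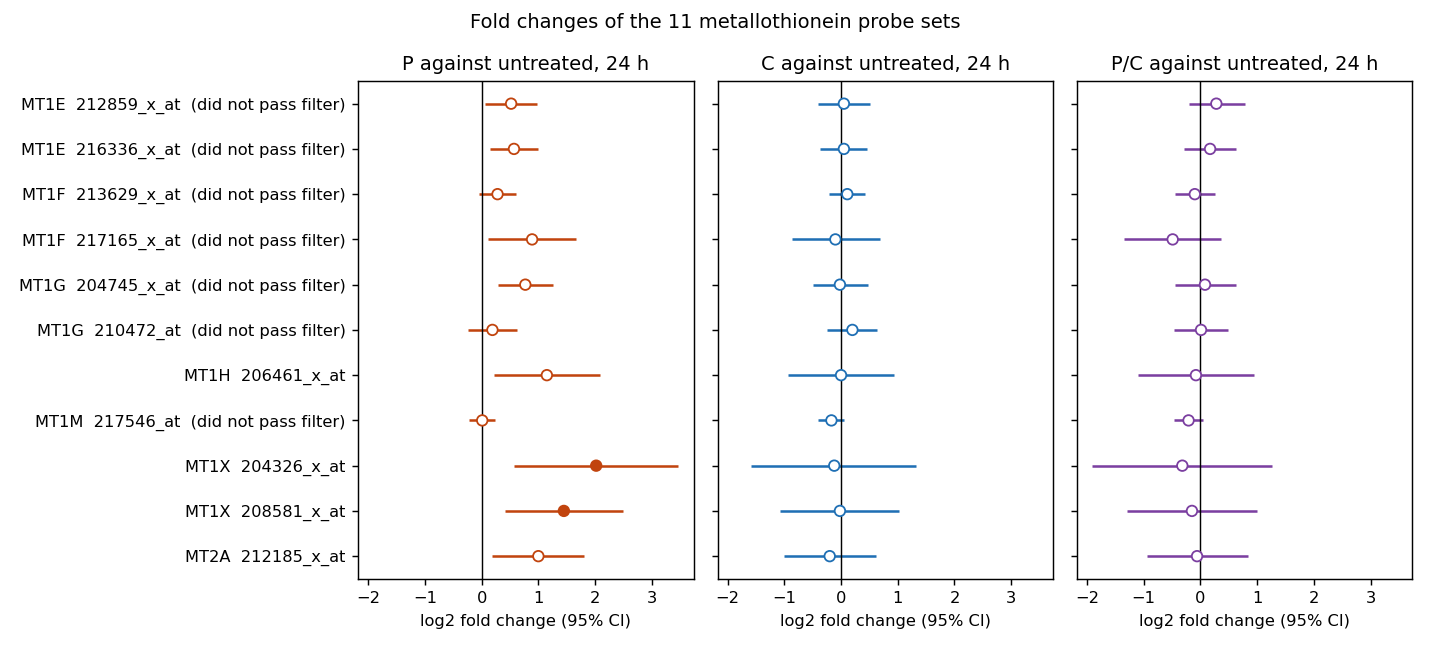
Log2 fold change (x axis) of each of the 11 metallothionein probe sets (y axis) against untreated cells at 24 h for P, C and P/C, which share the untreated arrays. Points are estimates from limma, lines are 95% intervals, and filled points are called. Only the MT1X points with P, at 2.02 and 1.45, are filled, and the intervals of C and P/C all span 0.

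Set against P alone, P/C at 24 h had a lower mean on 11 of the 11 probe sets, and no difference was called. Of all probe sets 47.4% were higher. The log2 difference was -2.35 ± 0.68 (SE) for MT1X 204326_x_at and -1.61 ± 0.49 for MT1X 208581_x_at, with adjusted p values of 0.0817 and 0.0947 in limma. It was -1.39 for MT1F 217165_x_at (adjusted p 0.116), -1.23 for MT1H and -1.06 for MT2A (both 0.139). At an unadjusted p of 0.05, 7 of the 11 passed, beside 12.8% of all probe sets and 19.9% of the tested ones. Both P/C arrays lay below every P array on 9 of the 11, which held for 12.6% of all probe sets, and above every P array on 0, which held for 14.5%. Of the tested probe sets 0.164% were called higher and 0% lower. Here and in the next comparisons with P/C, leaving out either P/C array leaves 1, which is assumed to vary like the other groups. Without P/C replicate 3, 6 probe sets were called lower, with log2 differences of -4.08 and -2.69 for MT1X, -2.16 for MT1H and -1.82 for MT2A. In that fit 3.37% of the tested probe sets and 0.963% of all probe sets were called lower. Without P/C replicate 1 none was called and the differences were -0.61 and -0.52 for MT1X and -0.29 for both MT1H and MT2A.

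The P/C effect was also set against the added effects of P and C on the log2 scale. It fell short of them on 11 of 11 probe sets, beside 47% of all probe sets that exceeded them. The difference was -2.22 ± 0.97 (SE) for MT1X 204326_x_at and -1.59 ± 0.7 for MT1X 208581_x_at, each with an adjusted p of 0.329 in limma. None was called, and 0% of the tested probe sets were. At an unadjusted p of 0.05, 4 of the 11 passed, beside 8.59% of all probe sets and 13.9% of the tested ones. Without P/C replicate 3 there were 3 calls, with differences of -3.96 and -2.67 for MT1X and -2.16 for MT1H, and 1.03% of the tested probe sets were then called lower. Without P/C replicate 1 the differences were -0.49 and -0.5 for MT1X and -0.29 for MT1H, and without the arrays numbered 1 of both C and P/C they were -0.46, -0.37 and -0.15, with 0 calls among the 4 probe sets that passed the filter in both.

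Between P/C and C at 24 h the groups overlapped on 11 of 11 probe sets, beside groups without overlap in 10.7% (higher) and 11.5% (lower) of all. None was called, while 0% and 0.0981% of the tested probe sets were called higher and lower. An unadjusted p of 0.05 was passed by 0 of the 11, beside 8.87% of all probe sets and 14.8% of the tested ones. The log2 difference was -0.2 for MT1X 204326_x_at, -0.13 for MT1X 208581_x_at, -0.08 for MT1H and 0.14 for MT2A. Without P/C replicate 1 it was 1.54, 0.95, 0.86 and 0.91 in that order, and without replicate 3 it was -1.93, -1.22, -1.01 and -0.63. Without the arrays numbered 1 of both C and P/C it was 1.57, 1.09, 1 and 1.09, with adjusted p values in limma of 0.0815 to 0.162. None of the 4 was called in these fits, and the sign turned with the P/C array left out.

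At 8 h the 4 probe sets that passed the filter were above the signal limit in untreated cells, the other 7 were below it, and no drug effect was called. MT2A read 9.87 and 9.65 on the untreated arrays, 10.27 and 10.04 with P, 9.98 and 9.45 with C, and 10.34 and 9.97 with P/C. MT1X 208581_x_at read 9.43 and 8.47 on the untreated arrays, 9.5 and 9.14 with P, and 9.54 and 9.21 with P/C. The arrays with P or P/C lay above both untreated ones for MT2A. For this MT1X probe set each lay above the untreated array of the same number. There the replicate 1 arrays with P and P/C lay above both untreated arrays, and the replicate 3 arrays lay between them. The log2 difference of MT2A was 0.39 ± 0.42 (SE) with P and 0.4 ± 0.42 with P/C, with adjusted p values of 0.875 and 0.788 in limma. With the replicate number as a block these were 0.767 and 0.702, and for MT1X 208581_x_at 0.832 with P and 0.747 with P/C.

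Over the 11 probe sets the P differences at 8 h ran from -0.08 to 0.51 with a median of 0.25, and 10 were positive, beside 45.3% of all probe sets. Groups without overlap were found for 4 in the higher direction and 1 in the lower, beside 16.1% and 22.1% of all probe sets. With P 0 of the 11 were called, while 0.196% of the tested probe sets were called higher and 0.294% lower. An unadjusted p of 0.05 was passed by 0 of the 11, beside 6.04% of all probe sets and 9.58% of the tested ones. With P/C 0 were called, beside 0.262% of the tested probe sets called higher and 0.36% lower. There 0 passed an unadjusted p of 0.05, beside 6.61% of all probe sets and 11.8% of the tested ones. With P/C 3 of the 11 lay wholly above the untreated arrays and 0 below, beside 15.6% and 17.1% of all. Both groups with piroxicam were also set against both without it. The differences ran from -0.05 to 0.52, and the lowest adjusted p in limma was 0.492. Here 0 were called, beside 0.785% of the tested probe sets called higher and 1.11% lower. An unadjusted p of 0.05 was passed by 0, beside 10.3% of all probe sets and 19.3% of the tested ones. The same for cisplatin ran from -0.24 to 0.08, with 0 called and 0% of the tested probe sets called. For cisplatin 0 passed an unadjusted p of 0.05, beside 2.4% of all probe sets and 1.57% of the tested ones.

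Untreated cells tended to lower values at 24 h than at 8 h, without a call. The log2 difference was -0.77 ± 0.54 (SE) for MT1X 208581_x_at, -0.73 ± 0.48 for MT1H and -0.41 ± 0.42 for MT2A, with adjusted p values in limma of 0.862 for the first and second and 0.931 for MT2A. It was negative for 10 of the 11 probe sets, while 47.5% of all probe sets were positive. None of the 11 was called, beside 0.0981% of the tested probe sets called higher and 0% lower. An unadjusted p of 0.05 was passed by 0 of the 11, beside 4.21% of all probe sets and 5.56% of the tested ones. The untreated 24 h arrays differed from each other, replicate 2 exceeding replicate 1 by 0.56 to 1.06 on the probe sets that passed the filter. Only 131 of the 3057 tested probe sets, or 4.29%, had a difference of at least 0.56 in that direction. From 8 h to 24 h the mean of MT1X 204326_x_at went from 7.83 to 8.61 with P and from 7.34 to 6.58 in untreated cells. The mean of MT2A went from 10.15 to 10.36 with P and from 9.76 to 9.36 in untreated cells. Both shifts enter the change of the P difference with time. The P difference was larger at 24 h than at 8 h on 11 of 11 probe sets, by 1.54 ± 1.01 for MT1X 204326_x_at and 0.61 ± 0.57 for MT2A. Of all probe sets 55.9% were larger at 24 h. This difference between the times was called on 0 of the 11, with 1 at an unadjusted p of 0.05, beside 7.11% of all probe sets, and a lowest adjusted p of 0.547 in limma, beside 0% of the tested probe sets called higher and 0.196% lower, so the effects of P at 24 h and 8 h are not shown to differ. For P/C 0 of the 11 were called between the times, beside 0.0327% of the tested probe sets in each direction. There 0 passed an unadjusted p of 0.05, beside 6.31% of all probe sets and 10.6% of the tested ones. The P/C difference of MT1X 204326_x_at changed between the times by -0.89 ± 1.06, by 0.84 without P/C 24 h replicate 1 and by -2.63 without P/C 24 h replicate 3, without a call.

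Ordered by mean, P 24 h came first on each of the 4 probe sets that passed the filter, followed by P/C 8 h and P 8 h. Untreated and C at 8 h came next, and untreated, C and P/C at 24 h took the last 3 places. For MT1X 204326_x_at the means fell from 8.61 ± 0.5 (SD, n = 3) with P at 24 h to 6.26 ± 2.45 (SD, n = 2) with P/C at 24 h, and for MT2A from 10.36 ± 0.06 (SD, n = 3) with P to 9.16 ± 0.56 (SD, n = 3) with C at 24 h. Most neighbours in this order overlapped. The exceptions were P 24 h above P/C 8 h for MT1X 204326_x_at, C 8 h above untreated 24 h for MT1X 208581_x_at, and P 8 h above untreated 8 h for MT2A. On MT1H all neighbours overlapped.

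**Figure D4:**
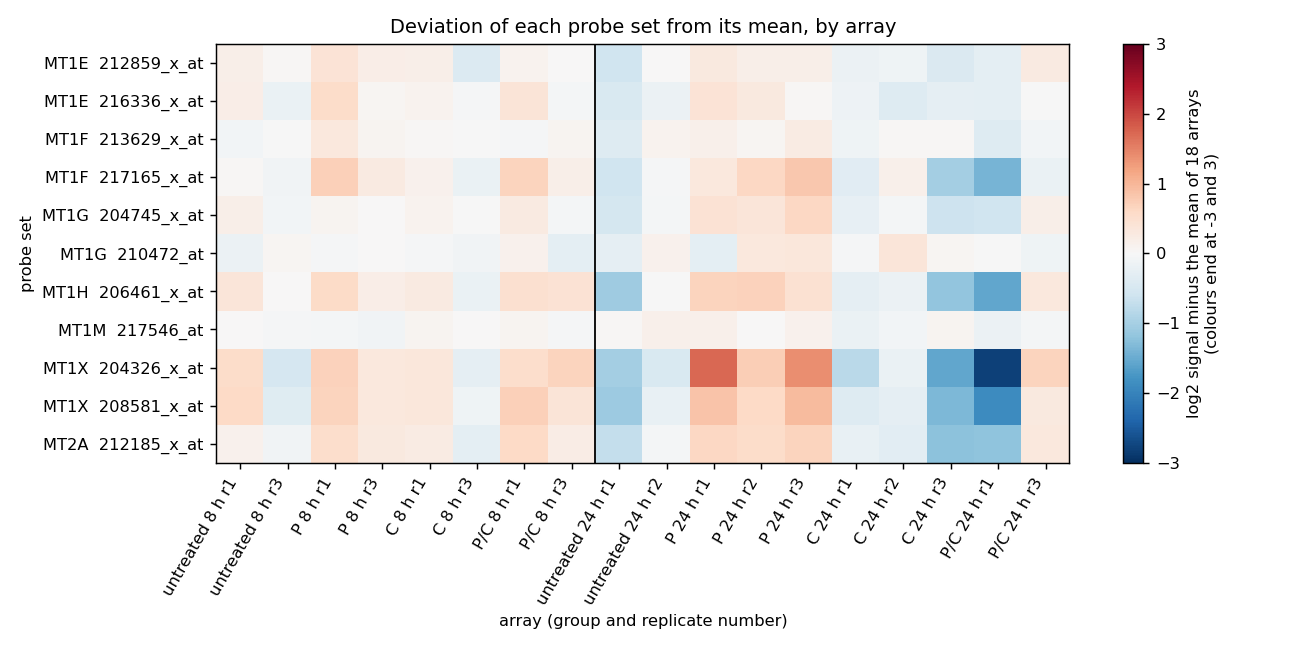
Log2 signal of the 11 metallothionein probe sets (y axis) on each of the 18 arrays (x axis, group and replicate number r), as the difference from the mean of the probe set over all arrays. Red is above the mean and blue below it. The 4 probe sets that passed the filter are red on all P 24 h arrays and bluest on P/C 24 h r1, C 24 h r3 and untreated 24 h r1, while MT1G 210472_at and MT1M 217546_at stay pale.

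The probe sets with the _x_at suffix tended to move together from array to array, though not all pairs did so closely within groups. Over the 18 arrays Pearson's r was 0.94 to 0.97 in the 6 pairs of probe sets that passed the filter, and 0.88 to 0.96 when each value was taken as its deviation from the group mean. Over the 36 pairs with the suffix it was 0.58 to 0.97, and 0.26 to 0.96 for the deviations from the group mean. MT1M 217546_at had r of 0.07 to 0.45 with the others and MT1G 210472_at -0.06 to 0.3, and the MT1G probe sets had r = 0.24 with each other. These values describe shared arrays and, within the family, shared probes.

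Of the other metallothioneins only MT1HL1, MT3 and MT4 were looked up, each on a probe set that names it alone. MT1HL1 211456_x_at, which passed the filter and is a close copy of the MT1 genes, was the gene most alike to the mean of the 4 probe sets, with Pearson's r = 0.96 and Spearman's rho = 0.92 over 18 arrays. Its log2 difference with P at 24 h was 1.1 with an adjusted p of 0.0978 in limma. The next most alike by Pearson's r were NDEL1 (r = 0.87), which acts with the motor protein dynein, ITGB1 (0.84), the integrin beta 1 chain, CXCL3 (0.82) and EPS8 (0.8), an adaptor in growth factor signalling to actin. Spearman's rho ordered these genes otherwise, with CXCL3 at 0.91, ITGB1 at 0.79, NDEL1 at 0.71 and EPS8 at 0.68. NDEL1 and EPS8 had their lowest values on P/C 24 h replicate 1, at 6.37 and 4.1. MT3 lay between 2.57 and 3.29 and MT4 between 1.92 and 2.62.

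The genes that handle zinc were checked because MTF1 and zinc export go with metallothionein induction in many cells. Of 19 listed genes of zinc transport and metal sensing, 16 were on the array and 6 passed the filter, and 0 were called in any of the 6 comparisons with untreated cells when all arrays were used. The shares of tested probe sets called are given above for each of these comparisons. Their median difference with P at 24 h was 0.08, beside 0.03 for all probe sets. MTF1 differed by 0.12 ± 0.14 (SE) with P and by 0.18 ± 0.16 with P/C, at a low level of 3.54 in untreated cells. Named after their values were seen, SLC39A8 and SLC39A14, which encode zinc importers, passed the adjusted p with P at 24 h but not the fold limit. SLC39A8 differed by -0.93 ± 0.23 (adjusted p 0.00791 in limma) and SLC39A14 by 0.73 ± 0.22 (0.0245).

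SLC30A1, a known MTF1 target, read 6.42, 6.27 and 6.24 with P at 24 h, all above its untreated values of 5.53 and 5.63. Its log2 difference was 0.73 ± 0.64 with P, 1.04 ± 0.64 with C and 1.68 ± 0.7 with P/C, with adjusted p values of 0.409, 0.451 and 0.127 in limma. These tests depended on the array labelled C 24 h replicate 1, where SLC30A1 was at 4.54. That array was singled out above by this same SLC30A1 value. The smaller SEs and the calls without it therefore follow in part from that choice and are no separate test of SLC30A1. Without it SLC30A1 was called higher with C, by 2.08 ± 0.28 or 4.23-fold (adjusted p 0.000519), and with P/C, by 1.68 ± 0.28 (0.00247), while 1.38% and 3.46% of the tested probe sets were called higher. With P the difference of 0.73 then had an adjusted p of 0.0427 and stayed under the fold limit. Without P/C 24 h replicate 1, which leaves 1 P/C array, SLC39A4, an importer that did not pass the filter, differed by 1.87 with P/C. On P/C 24 h replicates 1 and 3 SLC30A1 read 7.24 and 7.29, without the gap that MT1X, MT1H and MT2A showed between these arrays.

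Among 16 other listed genes that respond to metals and oxidants, 12 were on the array and 6 passed the filter. With P at 24 h, 1 was called higher and 1 lower, both from the fit of all probe sets, in which 0.851% were called higher and 2.67% lower. HMOX1 read 2.87 and 2.48 on the untreated arrays and 6.2, 4.68 and 5.76 with P, a log2 fold change of 2.87 ± 0.56 (SE) with an adjusted p of 0.00996 in limma. Its untreated level was near the median of all probe sets of an array. Of the P/C arrays HMOX1 was high on replicate 3 alone, and its P/C difference of 1.12 was not called (adjusted p 0.46). Without P/C replicate 1 it was 2.44. That array was singled out above partly by its low HMOX1 value, and leaving it out leaves 1 P/C array, so this value is no separate test of HMOX1. DNAJB1, a cochaperone of HSP70, fell from a mean of 5.69 to 4.03, by 1.66 ± 0.34 on the log2 scale (adjusted p 0.0118). Without untreated replicate 2 neither call was kept (0.11 and 0.107), and DNAJB1 also lost it without untreated replicate 1 (0.0667). In the other 5 comparisons with untreated cells 0 genes of this list were called when all arrays were used.

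Of 11 listed genes induced by glucocorticoids, 10 were on the array and 6 passed the filter. Their median difference at 8 h was 0.45 with P, 0.03 with C and 0.65 with P/C, beside -0.02, -0.03 and 0 for all probe sets. None of them was called at 8 h. The median at 24 h was 0.05 with P, 0.17 with C and 0.22 with P/C, beside 0.03, 0.01 and 0. DUSP1, a phosphatase that switches off MAP kinases, was the only one called. Its calls were with P and P/C at 24 h, where 3.14% and 2.65% of the tested probe sets were called higher. At 24 h it read 8.33 and 8.13 on the untreated arrays and 9.62, 9.52 and 9.35 with P. It read 8.06, 8.94 and 8.94 with C and 9.05 and 9.61 with P/C. Its log2 fold change was 1.27 ± 0.27 (SE) with P and 1.1 ± 0.3 with P/C, with adjusted p values of 0.00395 and 0.0335 in limma. The call with P was lost without untreated replicate 2 (0.0535). The call with P/C was lost without either untreated array (0.0638 and 0.236) or without P/C replicate 3 (0.184), and with no filter (0.0706). DUSP1 thus lay above the untreated arrays on both P/C arrays, whereas MT1X, MT1H and MT2A did so on 1. The C arrays numbered 2 and 3 also lay above both untreated arrays for DUSP1. The lower P/C value, on replicate 1, lay above every C array and below every P array.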

How the data were processed

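RNA of MSTO-211H cells was hybridised to 18 HGU133A arrays. Per the labels and the study's methods, the authors left out arrays whose raw intensities were outlying and computed the deposited log2 values with GCRMA, which corrects for background and normalizes between arrays. The GCRMA version and the genome build are not given in the sources used here. GCRMA pulls low signals together, so differences near background are understated. Names of probe sets come from the platform annotation (19071 with 1 symbol, 1043 with several, 2169 with none).

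The study's filter (an IQR of 0.25 or more and a signal of 100 or more on 25% of the arrays or more, controls left out) kept 3057 probe sets when applied as stated to the deposited values, fewer than the study's methods give; the cause was not tested. The model, fitted in limma 3.58.1 (R 4.3.3), had 1 mean per group over all arrays (10 residual and 5.76 prior degrees of freedom), and two-sided p values were adjusted by Benjamini-Hochberg over all tested probe sets in each of 15 comparisons. A call needed an adjusted p not above 0.05 and a change of 1 or more on the log2 scale. Probe sets outside the filter were fitted with all 22215. Precision is limited by the number of arrays, and where cultures were not separate the p values measure technical spread only.

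The family members, gene lists and tests were chosen with earlier results of these data known. Named genes were all members, MTF1, SLC30A1, HMOX1, up to 4 called genes of each list with the largest changes, each gene by its brightest probe set, and the 5 other genes most correlated with the mean of the members that passed the filter. MT1F, MT1X and MT2A are among the genes the study selected on these samples. On simulated data of 3057 probe sets with 200 changed, the comparison of P with untreated cells at 24 h recovered 86.4% of the changes of 1.5 and 96% of those of 2 on the log2 scale, with a mean of 5 false calls. The changed probe sets were drawn from all tested ones, and the simulated noise was independent between probe sets. The metallothionein probe sets that passed the filter moved together from array to array, with SEs of 0.68 and 0.49 for MT1X in this comparison. These shares therefore do not give the recovery for this family. No pair of arrays was a duplicate (highest correlation 0.9947). Same-numbered arrays deviated together at 8 h (r of 0.2 to 0.66) but not throughout at 24 h (-0.22 to 0.39), so the numbers were not taken to pair the 24 h arrays. The alternatives were no filter, a signal of 200, quantile normalization, median centring, array weights, an intensity trend, only the arrays compared, a replicate block, and fits without single arrays or without the C and P/C arrays numbered 1 at 24 h.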

Additional observations from a re-analysis of the deposited data

How the results depend on the processing

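Of the 15 counts of called metallothionein probe sets, 12 were 0 in each alternative run. With P at 24 h the count of 2 became 4 with a signal limit of 200, with array weights, with an intensity trend, with only the arrays of the comparison, and without both arrays numbered 1 of C and P/C at 24 h. It became 0 with no filter, where the MT1X probe sets had adjusted p values of 0.136 and 0.128 in limma and more probe sets were tested. Leaving out 1 array at a time gave 0 to 4. Quantile normalization gave 3 calls, with MT1H added at an adjusted p of 0.0419, and median centring gave 2. The log2 fold changes of MT1X stayed positive in the 27 alternatives, from 1.74 to 2.3 on 204326_x_at and from 1.03 to 1.88 on 208581_x_at. For P/C against P and for the departure from the sum, both 0, leaving out 1 array gave 0 to 6 and 0 to 3. Quantile normalization moved the median of the tested probe sets with P at 24 h from -0.22 to -0.01 and that of the 11 members from 0.77 to 0.94. The causes of these shifts were not tested.

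With the replicate number as a replicate block the count with P at 24 h was 0, with MT1X log2 fold changes of 1.84 and 1.37 and adjusted p values of 0.0687 and 0.0501 in limma. The block also ended the call of DUSP1 with P/C (0.0622) and changed no other call of the genes named. It could not be fitted to the comparison of untreated cells between the times. Array weights (0.0887) and a fit of only the arrays compared (0.124) likewise ended the DUSP1 call. With 2 or 3 arrays per group, a change below about 1 on the log2 scale was within the 95% interval of MT1X 208581_x_at with C at 24 h (-1.07 to 1.03).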
